A study of Mus musculus with 54 samples.

Results

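NMDA receptor subunit genes were described in the mouse suprachiasmatic nucleus (SCN) over 24 hr. The 6 genes *Grin1*, *Grin2a*, *Grin2b*, *Grin2c*, *Grin2d* and *Grin3a* were taken from the count table by their Ensembl identifiers, out of 30031 genes counted and 18941 tested. All 6 were among the tested genes, which had at least 1 read in more than 6 of the 18 replicates. *Grin3b*, which encodes the remaining subunit GluN3B, was not among them and was listed at 37 reads in 1 ZT14 replicate, 60 reads in 1 ZT18 replicate and at most 2 reads in every other replicate.

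The NMDA receptor is a glutamate-gated channel made of subunits, in which GluN1, the product of *Grin1*, is present in every receptor. GluN2A, GluN2B, GluN2C and GluN2D bind glutamate and set how fast the channel closes and how strongly magnesium blocks it, while GluN3A binds glycine and lowers calcium entry. In the SCN, which holds the master clock of mammals, the axons of retinal ganglion cells release glutamate in response to light, and NMDA receptors pass calcium into SCN neurons on the route by which light shifts the clock. The study measured how the SCN transcriptome varies over the day and night, and the subunit genes are read here from that survey.

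The SCN was cut from Nissl-stained brain sections by laser-capture microdissection, a method that excises marked tissue with a laser. Male C3H/HeH mice of 10 to 12 weeks were kept in 12 hr light and 12 hr dark, and brains were taken at ZT2, ZT6, ZT10, ZT14, ZT18 or ZT22, in hours after lights on. All 6 groups had the same strain, sex, age range and lighting, were labelled WT (wild type) and received no treatment. Each group held 3 biological replicates (A, B and C), each a pool of tissue from 5 animals, so that differences between single animals were not measured, and each was sequenced as 3 technical replicates from amplified polyA RNA.

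Total counts ran from 15412981 to 35820945 per replicate. Levels are given in CPM (counts scaled to library size, with TMM factors) as mean ± SD of 3 replicates unless stated. All 9 SCN markers were detected in every replicate, with a summed level between 1578 CPM (ZT14 C) and 5582 CPM (ZT6 C). Each of the 18 libraries was most correlated, among libraries of other timepoints, with a library of the same partner timepoint. The partners were those of 3 library clusters, the first of ZT2 and ZT22, another of ZT6 and ZT10, and the last of ZT14 and ZT18. These clusters were taken from the study's principal component plot and from library correlations, so the correlations are no separate check of them. The study describes that plot as separating libraries by batch of sequencing as well as by time. Which libraries shared a batch is not given in the sources used here. Comparisons between clusters therefore cannot be told apart from a difference between sets of libraries, and those inside a cluster are named below. In pooled tissue, fewer cells of a type and less RNA per cell cannot be told apart.

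The primers of a PCR assay run on laser-captured SCN samples and the start region of *Grin1* are shown. The study's quantitative PCR assay for *Grin2b*, the subunit gene with the most reads, used a primer pair that is written here 5′ to 3′. On GRCm38, chromosome 6, the forward primer lay at chr6:135843121-135843140 and the reverse primer at chr6:135780308-135780327, in neighbouring coding exons of both matching *Grin2b* transcripts, with a product of 82 bases.
Grin2b forward: tgcatccgaagctggtgata
Grin2b reverse: tgcagggacttgtctttcca

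RefSeq start regions on GRCm38.p6, each 250 bases before to 50 after the start of the gene in RefSeq, were matched for 3 of the 6 genes (*Grin1*, *Grin2c* and *Grin2d*). The *Grin1* region, at chr2:25319138-25319437 on the minus strand, is printed 5′ to 3′ because *Grin1* passed both the time test and the test for a daily cycle, and E-boxes are the sites that clock activators bind in many cycling genes. Capitals mark matches on either strand to the E-box CACGTG, to the core TGACG of the cAMP response element (CGTCA on the printed strand) and to the GC box GGGCGG.
Grin1: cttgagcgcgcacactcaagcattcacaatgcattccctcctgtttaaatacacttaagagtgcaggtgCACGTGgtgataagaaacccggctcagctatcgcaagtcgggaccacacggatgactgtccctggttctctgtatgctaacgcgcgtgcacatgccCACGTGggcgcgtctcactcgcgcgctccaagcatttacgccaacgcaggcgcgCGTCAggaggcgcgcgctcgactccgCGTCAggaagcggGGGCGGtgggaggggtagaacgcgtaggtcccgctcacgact
This window held 2 E-boxes, 2 such cores and 1 GC box, none of which overlapped another, and no full cAMP response element TGACGTCA. Among 32851 RefSeq regions of the same length, 7.15% held an E-box, 20.8% the core, 1.79% the full element, which contains the core, and 35.7% the GC box. The *Grin2c* window, at chr11:115267194-115267493 on the minus strand, held 3 GC box matches, of which a pair shared letters, and none of the other motifs. The *Grin2d* window, at chr7:45866632-45866931 on the minus strand, held no match to any of the 4 motifs. It lies inside the *Grin2d* gene as GENCODE M21 places it, whose start is at 45878378, so the window does not cover that start. A match is a description of the letters and no evidence of binding.

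*Grin1*, which encodes the subunit that every NMDA receptor contains, lies on chromosome 2 (25291181 to 25319187, minus strand). It was low at ZT2, with 5.54, 8.69 and 9.98 CPM in replicates A, B and C, and at ZT22, with 7.65, 6.54 and 11.04 CPM. At ZT6 it stood at 64.8, 49.8 and 56.3 CPM and at ZT10 at 41.8, 46.9 and 71.2 CPM. Every replicate of these daytime points lay above every replicate of ZT22 and ZT2. At ZT14 the values were 97.1, 85.3 and 87.9 CPM, above every replicate of the other timepoints, and at ZT18 they were 51.8, 51.1 and 55.05 CPM. The highest mean (90.1 ± 6.20 CPM at ZT14) was 11.2 times the lowest (8.07 ± 2.28 CPM at ZT2). Corrected for GC content and length, as described with the contrasts, the ratio was 4.31 (53.6 ± 2.00 CPM at ZT14 against 12.4 ± 3.08 CPM at ZT22), and the ZT14 replicates (51.8 to 55.8 CPM) then overlapped those of ZT6, ZT10 and ZT18. ZT6, ZT10 and ZT18 overlapped as neighbours in the order of levels, as did ZT22 and ZT2. The antisense gene *Grin1os* shares 1307 bases of exon with *Grin1*, and strand use in the counting is not given in the sources used here. *Grin1os* had 6 to 82 reads per replicate, while *Grin1* had 98 to 3481.

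*Grin2b*, which encodes GluN2B, the GluN2 subunit of slowly closing receptors, lies on chromosome 6 (135713233 to 136173511, minus strand). It was high at ZT22, with 268, 667 and 636 CPM, at ZT2, with 311, 418 and 391 CPM, and at ZT14, with 427, 374 and 298 CPM. ZT18 stood lower and tight at 139, 153 and 144 CPM. The lowest values were those of ZT6, with 85.6, 111 and 66.2 CPM, and of ZT10, with 86.2, 49.7 and 72.6 CPM. Every replicate of ZT22, ZT2 and ZT14 lay above every replicate of ZT18, which in turn lay above those of ZT6 and ZT10. The highest mean (523 ± 222 CPM at ZT22) was 7.53 times the lowest (69.5 ± 18.4 CPM at ZT10), and replicate A held the lowest value of ZT22 by a wide margin. With 1146 to 18148 reads per replicate, *Grin2b* was the most deeply counted of the 6 genes.

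*Grin2a*, which encodes GluN2A, the subunit of receptors that close fast, lies on chromosome 16 (9567898 to 9995560, minus strand) and was counted thinly, with 3 to 393 reads per replicate. At ZT14 it stood at 10.96, 8.33 and 10.6 CPM, above every other replicate. At ZT10 it stood at 0.291, 0.391 and 0.708 CPM. The other timepoints spread widely between replicates, with 2.71, 1.94 and 4.16 CPM at ZT2, 1.78, 4.88 and 0.142 CPM at ZT6, 0.480, 2.57 and 5.37 CPM at ZT18, and 1.01, 4.81 and 7.53 CPM at ZT22. The means of ZT22, ZT2, ZT18, ZT6 and ZT10 followed each other in this order, with overlapping replicates at each step. The ZT14 mean of 9.95 ± 1.42 CPM was 21.5 times the ZT10 mean of 0.463 ± 0.218 CPM, which rests on 6 to 15 reads per replicate. Reads recovered from the normalized table, which differs from the count table at ZT6 and ZT10, were 3, 4 and 8 at ZT10, and with them the log2 difference of ZT14 from ZT10 was 5.17 (edgeR q = 0.00271) in place of 4.41, and the log2 range of *Grin2a* to *Grin1* over timepoints 6.43 in place of 5.53.

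*Grin2c*, which encodes GluN2C, a subunit of receptors with weak magnesium block, lies on chromosome 11 (115249169 to 115267243, minus strand). Its highest values were at ZT6, with 22.5, 19.6 and 40.1 CPM, and its lowest at ZT2, with 9.44, 8.61 and 8.01 CPM, which did not overlap. Between them lay ZT10 (16.1 ± 2.31 CPM), ZT18 (14.7 ± 4.90 CPM), ZT14 (12.9 ± 2.93 CPM) and ZT22 (9.95 ± 1.21 CPM), each overlapping the next. The ratio of the highest to the lowest mean was 3.15. Corrected for GC content and length, as described with the contrasts, the order changed. The highest mean was then 19.9 ± 6.53 CPM at ZT2 and the lowest 8.02 ± 1.81 CPM at ZT14.

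*Grin2d*, which encodes GluN2D, the subunit of the slowest-closing receptors, lies on chromosome 7 (45831883 to 45878378, minus strand). It was low throughout, with 23 to 136 reads per replicate and means between 1.86 ± 0.391 CPM (ZT22) and 3.37 ± 1.22 CPM (ZT18). Replicates of every neighbouring pair in the order of levels overlapped, and so did those of the highest and the lowest timepoint. ZT6 spread the most, at 2.04, 5.16 and 1.09 CPM. Corrected for GC content and length, as described with the contrasts, the highest mean was 5.63 ± 2.28 CPM at ZT2 (3.01 to 7.11 CPM). The lowest was then 1.23 ± 0.173 CPM at ZT14 (1.09 to 1.42 CPM), a ratio of 4.58.

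*Grin3a*, which encodes the glycine-binding subunit GluN3A, lies on chromosome 4 (49661611 to 49845744, minus strand). It stood at 57.5, 52.9 and 61.0 CPM at ZT22 and at 45.3, 84.7 and 41.0 CPM at ZT2. The lowest values were those of ZT18, with 27.5, 26.2 and 16.97 CPM. ZT6 (39.8 ± 5.67 CPM), ZT14 (38.9 ± 2.92 CPM) and ZT10 (34.4 ± 1.57 CPM) overlapped with their neighbours in the order of levels, and ZT18 lay below every replicate of ZT10. The highest mean was 2.42 times the lowest.

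**Figure D1:**
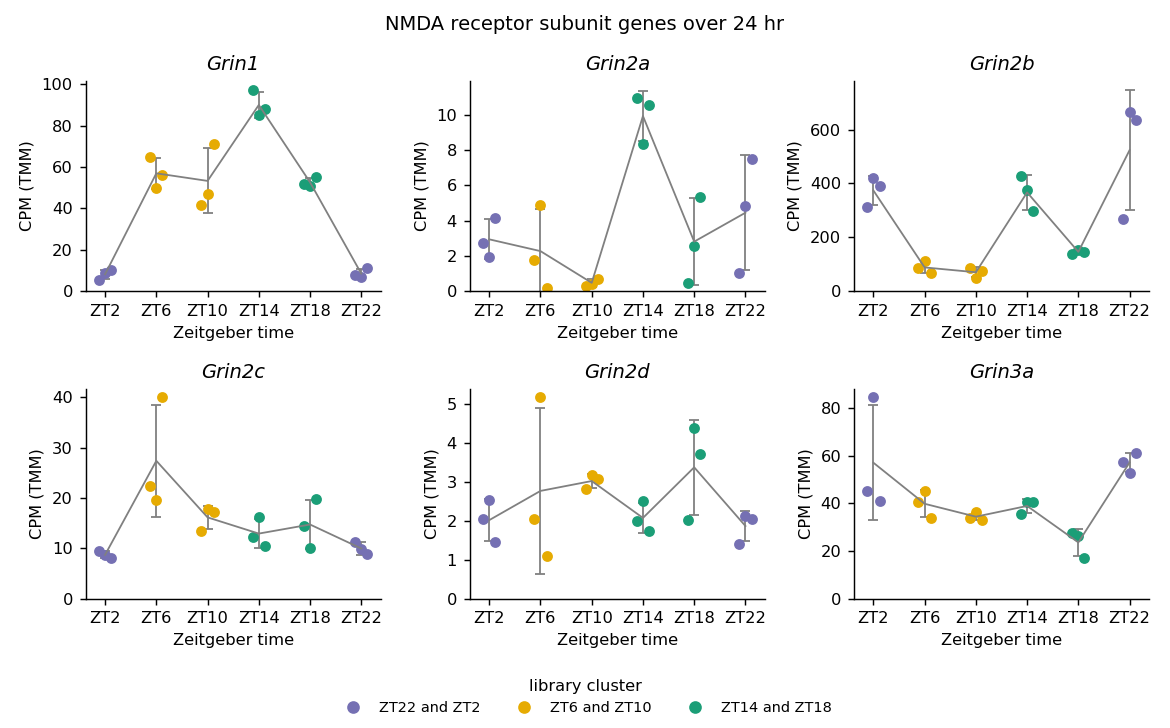
Level of each of the 6 subunit genes (CPM after TMM scaling, linear axis from 0) at the 6 zeitgeber times. Points are the replicates A, B and C from left to right, coloured by library cluster, and the line joins the means with SD bars (n = 3, cut at 0). *Grin1* sits at or under 11.04 CPM in the 6 libraries of ZT22 and ZT2 and at or above 41.8 CPM in the other 12, while *Grin2b* is lowest in the 6 libraries of ZT6 and ZT10.

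Whether the 6 timepoint means differed was tested with edgeR's quasi-likelihood F-test on all tested genes, with Benjamini–Hochberg adjustment (q) and a threshold of 0.05. Of the 6 genes 5 changed with time, where 44.0% of all tested genes did. The adjusted p was 3.23e-08 for *Grin1*, 1.06e-06 for *Grin2b*, 0.00291 for *Grin2c*, 0.00323 for *Grin3a* and 0.0320 for *Grin2a*, and it was 0.681 for *Grin2d*. Leaving out any 1 of the 6 libraries of ZT10 and ZT14 ended the call of *Grin2a*, whose edgeR adjusted p then lay between 0.0572 and 0.0899. The replicates of the highest and the lowest timepoint did not overlap for 5 of the 6 genes, all but *Grin2d*, against 76.8% of all tested genes.

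Both tests for a daily cycle, the time test and JTK_CYCLE (a rank test for a cosine of 24 hr with an exact null distribution), were passed by *Grin1* and *Grin2b*, 2 of the 6 genes, where 29.8% of all tested genes passed both. The JTK_CYCLE p was adjusted by Bonferroni over the 6 lags (possible peak times), capped at 1, and not adjusted over genes. It was 0.00224 for *Grin1*, with the best-fitting peak at ZT14, and 0.0178 for *Grin2b*, with the best-fitting peak at ZT22. Without ZT10 B, ZT22 B or ZT22 C only 1 of the 6 genes passed JTK_CYCLE. *Grin2b* also stood high at ZT14, which a single cosine with a peak at ZT22 leaves undescribed. The JTK_CYCLE p, adjusted over lags, was 0.144 for *Grin2c*, 0.144 for *Grin3a* and 0.796 for *Grin2a*, and *Grin2d* stood at the cap.

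Neighbouring timepoints were compared within the same edgeR fit. From ZT2 to ZT6, where 33.8% of all tested genes were called (17.5% higher and 16.3% lower at ZT6), *Grin1* rose by 2.81 ± 0.264 (log2 difference ± SE, edgeR q = 3.95e-07), *Grin2c* rose by 1.66 ± 0.322 (q = 0.000633) and *Grin2b* fell by 2.09 on the log2 scale (SE 0.296, edgeR q = 3.32e-05). From ZT18 to ZT22, where 18.1% were called (6.27% higher and 11.9% lower at ZT22), *Grin1* fell by 2.65 on the log2 scale (SE 0.261, edgeR q = 1.33e-06), while *Grin2b* rose by 1.85 ± 0.294 (q = 0.000237) and *Grin3a* rose by 1.27 ± 0.251 (q = 0.00160). From ZT10 to ZT14, where 16.8% were called (9.31% higher and 7.52% lower at ZT14), *Grin2b* rose by 2.40 ± 0.29995 (edgeR q = 4.38e-05), *Grin2a* by 4.41 ± 1.07 (q = 0.00798) and *Grin1* by 0.76 ± 0.245 (q = 0.0414). *Grin1* and *Grin2b* thus changed in opposite directions at 2 of these 3 steps and in the same direction at the third. The *Grin1* call from ZT10 to ZT14 was lost when ZT2 B, ZT2 C, ZT10 A, ZT10 B or any of the 3 ZT14 replicates was left out (edgeR q between 0.0509 and 0.159), and with DESeq2 size factors (q = 0.0604) or upper-quartile scaling (q = 0.0894). From ZT2 to ZT6, *Grin3a* was also called when ZT2 C was left out (-0.75, edgeR q = 0.0249). All 3 steps cross library clusters.

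Inside the clusters, no gene of the 6 was called from ZT6 to ZT10 (0.0475% of all tested genes called, 0.0264% higher and 0.0211% lower at ZT10) or from ZT22 to ZT2 (0.0317%, all of them higher at ZT2). At an unadjusted edgeR p under 0.05, *Grin2a* and *Grin2c* passed from ZT6 to ZT10, with differences of -2.28 ± 0.993 and -0.76 ± 0.314, and no gene of the 6 did so from ZT22 to ZT2. From ZT14 to ZT18, where 0.57% were called (0.158% higher and 0.412% lower at ZT18), *Grin2b* fell by 1.33 on the log2 scale (SE 0.289, edgeR q = 0.0470) and was the 1 gene called. That call was kept when ZT2 A, ZT6 C, ZT10 B or ZT22 A was left out and lost without any other library, with edgeR q between 0.0514 and 0.203. It was also lost with upper-quartile scaling (q = 0.0574), with the replicate block (q = 0.0653) and after correction for GC content and length (q = 0.158), with differences between -1.34 and -0.88. DESeq2 in place of edgeR gave an adjusted p of 0.00138. The values of the others from ZT14 to ZT18 were -0.78 ± 0.245 for *Grin1*, -0.72 ± 0.249 for *Grin3a*, -1.84 ± 0.940 for *Grin2a*, 0.19 ± 0.313 for *Grin2c* and 0.70 ± 0.591 for *Grin2d*, none called. At an unadjusted edgeR p, *Grin1* (0.00545) and *Grin3a* (0.00992) were under 0.05 among these.

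ZT14 and ZT22, the early and late night points at which light shifts the clock most, were set against ZT18 and ZT2, the partner timepoint of each in its library cluster. None of the 6 genes passed with edgeR, where 0.148% of all tested genes did (0.127% higher and 0.0211% lower). *Grin2b* came nearest, with a mean of 445 CPM at the pair against 259 CPM, a log2 difference of 0.91 ± 0.203 and an edgeR q of 0.0691 (unadjusted p = 0.000301). It passed with DESeq2 (adjusted p = 0.00302), with at least 10 counts asked of every replicate (edgeR q = 0.0351) and with no filter on low counts (edgeR q = 0.0259). It also passed with edgeR without ZT6 C (q = 0.04999) and without ZT22 A (q = 0.00659), where the difference was 1.07. *Grin1* had an unadjusted edgeR p of 0.0295 with a difference of 0.42 ± 0.175. *Grin2a* had the largest difference, 1.22 ± 0.654, with an edgeR q of 0.550, and the values of *Grin3a*, *Grin2c* and *Grin2d* were 0.36 ± 0.175, 0.01 ± 0.221 and -0.41 ± 0.418.

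The subunit mix was compared as the log2 ratio of 2 genes' counts in the same library, which does not depend on library size (0.5 added to each count). For *Grin2b* to *Grin1* the log2 ratios in replicates A, B and C were 5.81, 5.58 and 5.29 at ZT2 and 5.13, 6.67 and 5.85 at ZT22. They were 0.40, 1.15 and 0.23 at ZT6, and 1.04, 0.08 and 0.03 at ZT10. At ZT14 they were 2.14, 2.13 and 1.76, and at ZT18 1.42, 1.58 and 1.38. The 3 library clusters formed 3 separate ranges without overlap. As geometric means, 58.9 *Grin2b* reads were counted per *Grin1* read at ZT22, 47.2 at ZT2, 4.03 at ZT14, 2.76 at ZT18, 1.51 at ZT6 and 1.31 at ZT10, which is a 45.1-fold range.

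For *Grin3a* to *Grin1* the geometric means were 6.94 at ZT22 and 6.87 at ZT2, against 0.697 at ZT6, 0.662 at ZT10, 0.431 at ZT14 and 0.438 at ZT18. Every replicate of ZT22 and ZT2 had at least 4.11 reads of *Grin3a* per read of *Grin1*, and every replicate of the other timepoints was at or under 0.906. *Grin2c* to *Grin1* ran from 1.21 at ZT22 to 0.141 at ZT14, *Grin2d* to *Grin1* from 0.253 at ZT2 to 0.0229 at ZT14, and *Grin2a* to *Grin1* from 0.408 at ZT22 to 0.00880 at ZT10. *Grin2a* to *Grin2b* was 0.0273 at ZT14 and between 0.00673 and 0.0133 elsewhere.

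A permutation test over samples (100000 resamples) of the F statistic across the 6 timepoints, one-sided towards large values, was run on these 6 ratios, with Benjamini–Hochberg adjustment over the 6. The permutation p was 2e-05 for *Grin2b* to *Grin1* (adjusted 9e-05), 3e-05 for *Grin2c* to *Grin1* (9e-05), 0.00013 for *Grin3a* to *Grin1* (0.00026), 0.00029 for *Grin2d* to *Grin1* (0.000435) and 0.00277 for *Grin2a* to *Grin1* (0.00332), with 1e-05 the smallest it can give. For *Grin2a* to *Grin2b* it was 0.37, both raw and adjusted. Every other ratio has *Grin1* as denominator, which was lowest at ZT2 (8.07 CPM) and ZT22 (8.41 CPM), so those results are not independent. *Grin2d* itself was not called in the time test (edgeR q = 0.681, and 0.0557 after the correction for GC content and length). When timepoints were permuted inside the library clusters (8000 arrangements, exact), no ratio passed. The exact p was 0.428 for *Grin2b* to *Grin1*, 0.996 for *Grin3a* to *Grin1*, 0.421 for *Grin2a* to *Grin1*, 0.084 for *Grin2c* to *Grin1*, 0.123 for *Grin2d* to *Grin1* and 0.579 for *Grin2a* to *Grin2b*, with adjusted values of 0.369 or more. Leaving out 1 library brought the exact within-cluster p under 0.05 for *Grin2a* to *Grin1* (0.032 without ZT6 C), *Grin2c* to *Grin1* (0.041 without ZT2 A and 0.046 without ZT22 C) and *Grin2d* to *Grin1* (0.017 without ZT6 B), all before adjustment. For *Grin2b* to *Grin1* ZT22 minus ZT2 was 0.32, ZT6 minus ZT10 was 0.21 and ZT14 minus ZT18 was 0.55 on the log2 scale, against a range of 5.49 over all timepoints. Differences inside clusters took more of the range in other ratios: for *Grin2a* to *Grin2b* ZT14 minus ZT18 was 1.06 of a range of 2.02, for *Grin2d* to *Grin1* it was -1.42 of 3.46, for *Grin2a* to *Grin1* 1.60 of 5.53 and for *Grin2c* to *Grin1* -0.93 of 3.09.

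**Figure D2:**
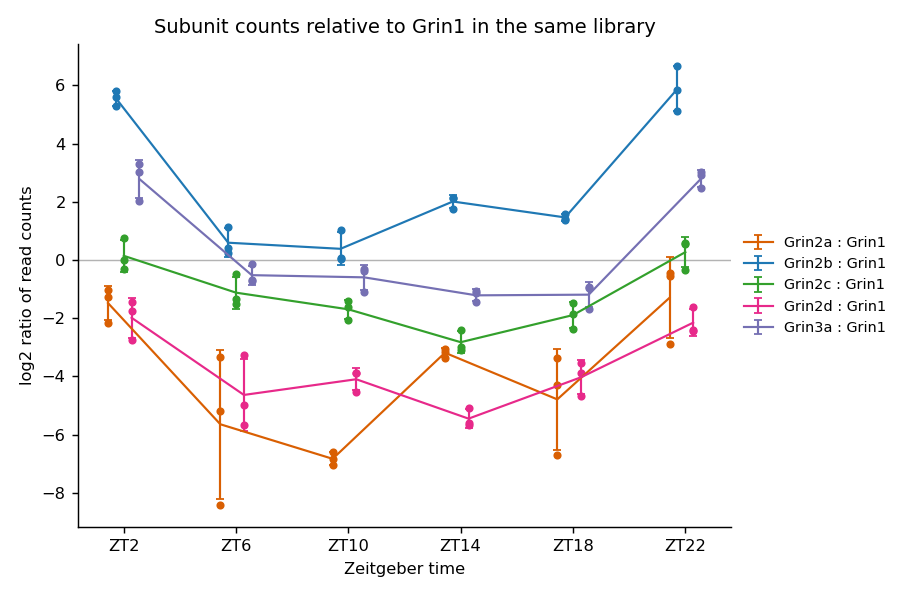
Log2 ratio of each subunit's read count to that of *Grin1* in the same library (vertical axis) at the 6 zeitgeber times, with replicates as points and means with SD as lines (n = 3). The ratios of all 5 genes share *Grin1* as denominator. They have their highest mean at ZT22 or ZT2, where *Grin1* itself is lowest. That of *Grin2b* falls from 5.56 at ZT2 to 0.60 at ZT6 and stands at 5.88 at ZT22.

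Levels of different genes were compared per kb of exon (union of all annotated exons). Averaged over the 18 replicates, *Grin2b* stood at 10.5 CPM per kb, *Grin1* at 4.63, *Grin3a* at 3.40, *Grin2c* at 2.97, *Grin2d* at 0.378 and *Grin2a* at 0.213. The summed level of the 6 genes was highest at ZT14 (30.6 ± 3.11 CPM per kb) and ZT22 (29.1 ± 8.96) and lowest at ZT10 (14.8 ± 1.82), with 22.7 ± 3.88 at ZT2, 18.6 ± 0.649 at ZT6 and 16.8 ± 0.734 at ZT18.

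As a share of that sum, *Grin2b* made up 70.2% ± 11.1 at ZT22 and 66.4% ± 4.23 at ZT2, against 47.9% ± 3.73 at ZT14, 34.9% ± 2.53 at ZT18, 19.1% ± 5.67 at ZT10 and 19.03% ± 5.37 at ZT6. *Grin1* made up 3.17% ± 1.13 at ZT22 and 3.66% ± 0.873 at ZT2, and between 30.5% ± 2.55 (ZT14) and 36.7% ± 6.14 (ZT10) elsewhere. *Grin2c* reached 29.0% ± 10.7 at ZT6 and 21.8% ± 3.25 at ZT10. *Grin3a* held between 10.5% ± 1.72 (ZT14) and 20.0% ± 5.36 (ZT2). *Grin2a* stayed at or under 1.83% ± 0.334 and *Grin2d* at or under 3.09% ± 0.359 in every timepoint mean.

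The shares depended on the length used. By coding length *Grin2c* made up 12.6% at ZT6 and 8.88% at ZT10, below *Grin2b* (32.7% and 31.6%), where the union of exons put *Grin2c* above. *Grin2d* at ZT10 made up 1.55% by coding length and 2.04% with recovered reads. Per kb of the longest protein-coding transcript, *Grin1* was above *Grin2b* at ZT14 (46.7% against 33.5%) and ZT18 (48.6% against 23.9%), where the union of exons and the coding length put *Grin2b* above. At ZT22 *Grin2b* led under all 3 lengths, with 70.2% by exons, 81.3% by coding length and 61.8% by transcript. The shares were not computed with the correction for GC content and length, which moved the highest mean of *Grin2c* from ZT6 to ZT2.

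**Figure D3:**
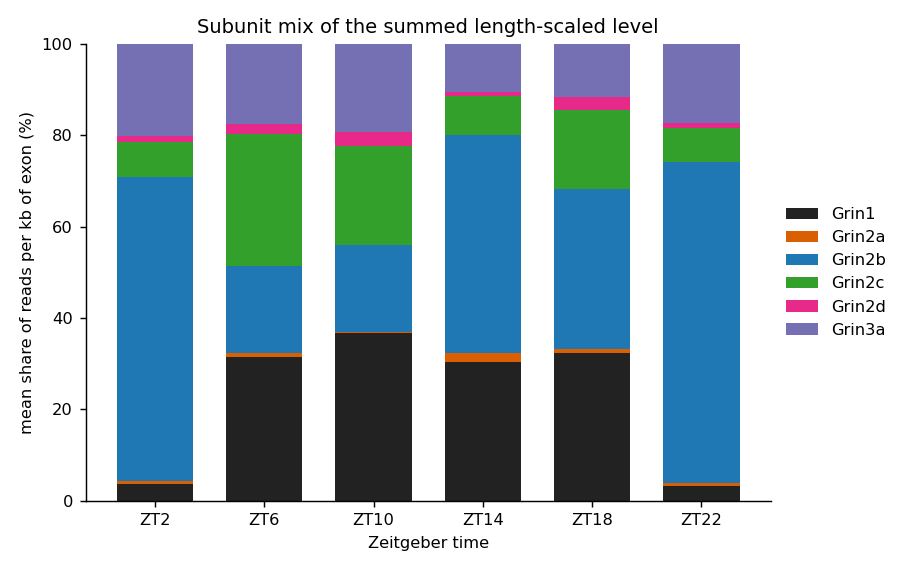
Mean share (%) of each gene in the summed reads per kb of exon of the 6 subunit genes, stacked to 100% at each zeitgeber time (3 replicates per bar, SDs in the text). The blue *Grin2b* part fills 70.2% at ZT22 and 19.03% at ZT6, while the dark *Grin1* part is 3.17% at ZT22 and 31.6% at ZT6.

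The members differ in base composition and length, and these properties moved with the library clusters. Exon GC content was 59.4% for *Grin1*, 62.1% for *Grin2c* and 65.0% for *Grin2d*, at or above the 94.3rd percentile of tested genes, against 44.8% for *Grin2a*, 45.7% for *Grin2b* and 49.2% for *Grin3a*. Over all tested genes with a known GC content, the median log2 difference of ZT6 minus ZT2 was -0.25 in the fifth of lowest GC and 0.91 in the fifth of highest GC. For ZT22 minus ZT18 the medians were 0.19 and -0.75. By exon length, the median of ZT14 minus ZT10 was -0.24 in the fifth of shortest exons and 0.40 in the fifth of longest, and the exon unions of *Grin2b* (24842 bases) and *Grin2a* (17933 bases) lie in the latter. *Grin1* lies in the fifth of highest GC and had the sign of its median at both steps, while *Grin2b*, at the 26.3rd percentile, lies just above the fifth of lowest GC and had the sign of that median at both.

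The contrasts were therefore repeated with each library corrected for its trend on GC content and exon length, an alternative chosen after seeing the data. *Grin1* kept its rise from ZT2 to ZT6 at 1.85 ± 0.216 (edgeR q = 4.51e-06) and its fall from ZT18 to ZT22 at -1.87 ± 0.215 (q = 7.51e-06). *Grin2b* kept -1.69 ± 0.263 (q = 9.25e-05), 1.77 ± 0.264 from ZT10 to ZT14 (q = 0.000287) and 1.43 ± 0.261 from ZT18 to ZT22 (q = 0.000818). *Grin3a* kept 1.05 ± 0.243 from ZT18 to ZT22 (q = 0.00547). *Grin2c* turned from 1.66 to -0.076 ± 0.339 from ZT2 to ZT6 (q = 0.891), and *Grin2d* came to -1.82 ± 0.650 (q = 0.0414) at the same step, where it stood at 0.46 ± 0.593 as counted. The *Grin1* step from ZT10 to ZT14 came to 0.17 ± 0.206 (q = 0.644). The time test then called 4 of the 6 genes, with q = 0.0630 for *Grin2a* and 0.0557 for *Grin2d*. *Grin2c* was still called (edgeR q = 0.0270), though its highest corrected mean was at ZT2 in place of ZT6. The range of the *Grin2b* to *Grin1* ratio was 4.20 on the log2 scale after correction and 5.49 before. The part of GC content and length in these differences was not tested beyond this correction.

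**Figure D4:**
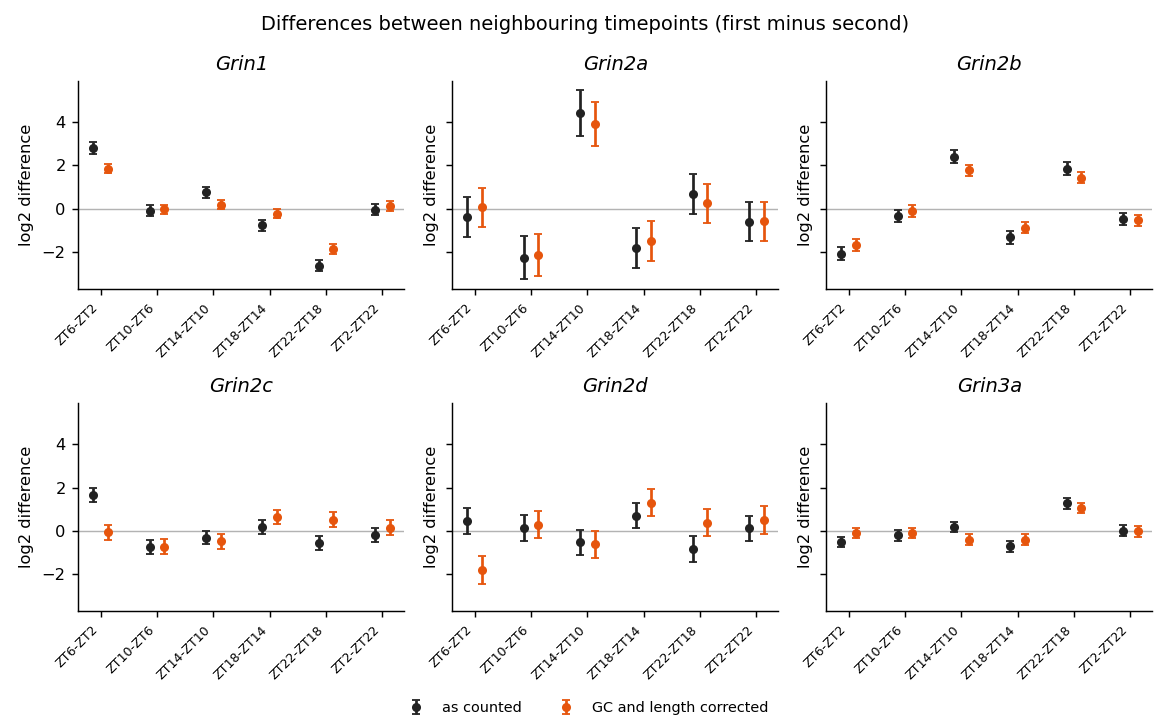
Log2 difference (first minus second timepoint, ± SE from the edgeR fit) of each subunit gene for the 6 steps between neighbouring timepoints, as counted (black) and corrected for GC content and exon length (orange). *Grin1* and *Grin2b* keep the sign of their differences of ZT6 minus ZT2 and ZT22 minus ZT18, and *Grin2c* moves from 1.66 to -0.076 at ZT6 minus ZT2.

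Marker levels of other cell types differed between libraries as well. The 5 markers of telencephalic excitatory neurons (*Slc17a7*, *Neurod6*, *Tbr1*, *Emx1* and *Neurod2*) were all tested and summed to 89.5, 90.8 and 197 CPM in the 3 ZT14 replicates and to 51.6, 213 and 154 CPM in those of ZT22. The sums were 49.9, 33.1 and 71.2 CPM at ZT2, 19.3, 14.2 and 16.5 CPM at ZT6, 38.9, 39.6 and 73.6 CPM at ZT10, and 24.8, 38.5 and 45.04 CPM at ZT18. *Emx1* and *Neurod2* were at 0 in at least 1 library. Inside the clusters the mean sum was 126 CPM at ZT14 and 36.1 CPM at ZT18, with *Grin2b* at 366 and 145 CPM and *Grin2a* at 9.95 and 2.81 CPM. It was 139 CPM at ZT22 and 51.4 CPM at ZT2, with *Grin2b* at 523 and 373 CPM and *Grin2a* at 4.45 and 2.94 CPM. At ZT6 and ZT10 it was 16.6 and 50.7 CPM, with *Grin2b* at 87.5 and 69.5 CPM and *Grin2a* at 2.27 and 0.463 CPM. The mean sums of ZT2 and ZT10, 51.4 and 50.7 CPM, were made up of different markers. *Neurod6* was higher at ZT2 (27.7 against 10.0 CPM), and *Slc17a7*, *Tbr1*, *Emx1* and *Neurod2* were higher at ZT10. Similar sums therefore do not by themselves show similar amounts of such tissue. ZT22 A, the replicate with the lowest marker sum of its timepoint, also held the lowest *Grin2b* and *Grin2a* values there (268 against 667 and 636 CPM, and 1.01 against 4.81 and 7.53 CPM). Within ZT2, ZT10 and ZT18 the order of the 3 *Grin2a* values was that of the 3 marker sums, and within ZT6, ZT14 and ZT22 it was not. Markers of neighbouring hypothalamic nuclei (7 of 8 tested, with *Crh*, *Pmch* and *Hcrt* at 0 in at least 1 library) summed to 228.9 CPM in ZT22 A against 37.3 and 54.8 CPM in ZT22 B and C. Astrocyte markers (7 of 7 tested) summed to at most 2252 CPM in every ZT6 and ZT10 library, where *Grin2b* was lowest. In all other libraries they summed to at least 2631 CPM. The means of *Slc1a3*, *Slc1a2*, *Aldh1l1*, *Gjb6* and *Agt* were lowest at ZT6 and ZT10, and those of *Gfap* and *Aqp4* were not. *Gfap* stood at 166 CPM at ZT10, 149 CPM at ZT2 and 151 CPM at ZT22, and *Aqp4* was lowest at ZT18 (135 CPM). The part of any of these cell types in the differences of the subunit genes was not tested. Oligodendrocyte markers summed to at least 4729 CPM in every ZT14 and ZT18 replicate and at most 4439 CPM elsewhere. SCN markers summed to at most 2582 CPM at ZT14 and ZT18 and at least 4172 CPM at ZT6 and ZT10. Of the 9 SCN markers 8 changed with time themselves (edgeR time test), with *Avp* at 454 CPM at ZT6 and 5.37 CPM at ZT22. *Lhx1* was the exception (edgeR q = 0.138). The SCN marker sum therefore does not by itself measure the amount of SCN tissue.

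**Figure D5:**
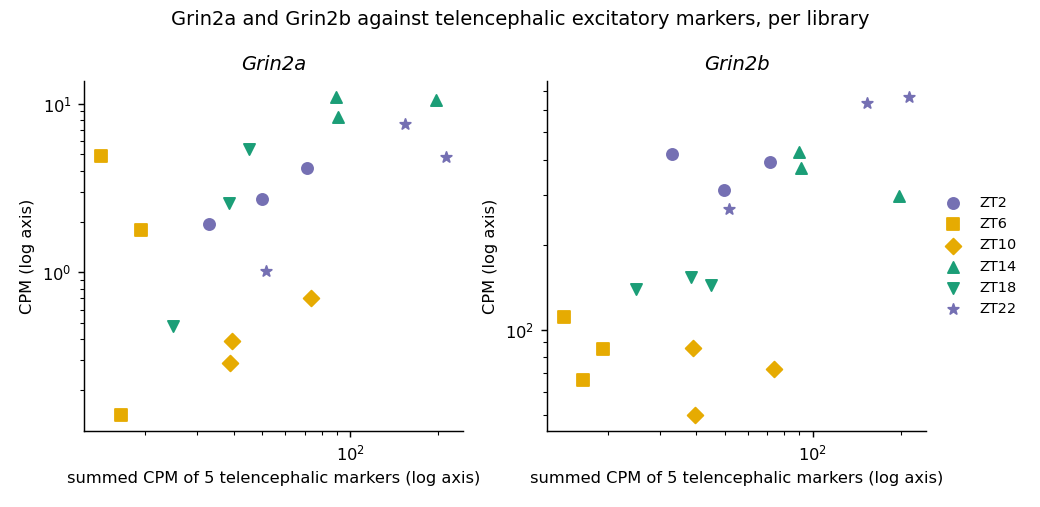
CPM of *Grin2a* (left) and *Grin2b* (right) against the summed CPM of 5 markers of telencephalic excitatory neurons, 1 point per library (n = 18), both axes logarithmic, with symbols for timepoints and colours for library clusters. The ZT14 and ZT22 libraries lie at marker sums of 51.6 CPM or more, and the lowest of these, ZT22 A, has the lowest *Grin2b* and *Grin2a* of the 6.

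Genes that work with the receptor were counted from lists, beside the shares of all tested genes given above. Among 15 scaffold genes of the postsynaptic density, 13 changed with time, 7 rose from ZT10 to ZT14 and none fell, and from ZT2 to ZT6 3 rose and 5 fell. Their median log2 difference from ZT10 to ZT14 was 0.98, against 0.12 for all tested genes, -0.24 for the fifth of shortest exon length and 0.40 for the fifth of longest. *Dlgap2*, a partner of the PSD-95 scaffold, stood at 48.3 ± 9.17 CPM at ZT14 and 3.496 ± 0.795 CPM at ZT6 (edgeR q of the time test 2.76e-06). *Dlg1*, which encodes the scaffold SAP97, stood at 143 ± 26.9 CPM at ZT2 and 42.2 ± 8.56 CPM at ZT6 (q = 5.66e-06).

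Of 14 trafficking genes and kinases tested 10 changed with time, with a median of -0.06 from ZT10 to ZT14, where 3 rose and none fell. *Cask*, a scaffold kinase that forms a complex with the Lin7 proteins, was highest at ZT2 (324 ± 28.0 CPM) and lowest at ZT10 (79.4 ± 18.4 CPM). *Lin7b*, of that complex, was lowest at ZT2 (5.20 ± 1.80 CPM) and highest at ZT14 (57.6 ± 5.80 CPM). Of 13 calcium-signalling genes tested 10 changed with time, with a median of 0.81 from ZT10 to ZT14, where 5 rose and 1 fell. *Camk2b*, a subunit of the calcium/calmodulin kinase that binds GluN2B, was the 1 listed gene that passed for ZT14 and ZT22 against ZT18 and ZT2 (0.79 ± 0.152, edgeR q = 0.0463), and with upper-quartile scaling, the replicate block or the GC and length correction no listed calcium gene passed. *Calm3*, a calmodulin gene, was lowest at ZT2 (230 ± 30.6 CPM) and highest at ZT6 (812 ± 44.9 CPM).

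Among 9 genes of the co-agonists glycine and D-serine, 5 changed with time, with a median of -0.86 from ZT2 to ZT6, where 4 fell and none rose. *Srr*, which encodes the enzyme that makes D-serine, stood at 85.4 ± 10.8 CPM at ZT2 and 29.7 ± 6.19 CPM at ZT6 (edgeR q of the time test 7.86e-06). *Psat1*, of the serine synthesis pathway, stood at 149 ± 19.6 CPM at ZT2 and 43.0 ± 10.7 CPM at ZT6 (q = 1.07e-05). *Grina*, a membrane protein named after the receptor but no subunit of it, ranged from 107 ± 17.7 CPM at ZT2 to 338 ± 17.6 CPM at ZT14 (q = 6.61e-05), and after the GC and length correction it passed neither the time test nor any step from ZT2 to ZT6, ZT10 to ZT14 or ZT18 to ZT22.

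The other ionotropic glutamate receptor genes were counted for comparison. Of 9 AMPA and kainate receptor subunit genes 8 changed with time, from ZT2 to ZT6 5 fell and 1 rose, and from ZT10 to ZT14 6 rose and none fell. Their median from ZT10 to ZT14 was 0.96, against 0.47 for the 6 NMDA receptor genes. *Gria3*, of the AMPA receptor, stood at 117 ± 38.7 CPM at ZT22, 88.2 ± 25.0 CPM at ZT2, 81.7 ± 9.72 CPM at ZT14 and 10.6 ± 2.65 CPM at ZT6, and its order of levels was that of *Grin2b* apart from ZT6 and ZT10. *Gria2* stood at 947 ± 204 CPM at ZT22 and 270 ± 35.4 CPM at ZT6. After correction for GC content and length 5 of the 9 genes passed the time test, 2 fell and none rose from ZT2 to ZT6, and 4 rose from ZT10 to ZT14. Of the 15 scaffold genes 10 then passed the time test.

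The genes most like each subunit gene were taken as those with the highest Pearson correlation of log2 CPM over the 18 replicates, among tested genes averaging 10 counts or more. These values are descriptions without a test, since the libraries share clusters and base composition trends. For *Grin1* they were *Crtc1* (r = 0.987), *Rnf44* (0.979) and *Ppp1r37* (0.973), and for *Grin2b* *Srgap3* (0.959), *Vps13d* (0.951) and *Dclk1* (0.948). For *Grin2a* the nearest was *Shank1* (0.900), a scaffold gene, followed by *Ntng2* (0.882) and *Zfp831* (0.838). For *Grin2c* they were *Nol7* (0.950), *Cdh22* (0.949) and *Mapk8ip1* (0.947), for *Grin2d* *Fermt2* (0.887), *Ccdc96* (0.733) and *Ctu1* (0.730), and for *Grin3a* *Zmym4* (0.915), *N4bp1* (0.888) and *Kcnma1* (0.880), which encodes the BK potassium channel. Between the 6 genes themselves the values ran from -0.748 (*Grin2b* with *Grin2c*) to 0.720 (*Grin2a* with *Grin2b*).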

How the data were processed

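Messenger RNA of laser-captured mouse SCN was sequenced in 18 replicates (54 technical replicates) at 6 timepoints. The authors aligned trimmed reads to mm10 using GSNAP, and HTSeq 0.5.4p1 gave counts per gene, deposited as 1 column per replicate. The deposited count table holds whole-number counts for 30031 genes. A second deposited table holds normalized signal (counts divided by size factors, DESeq2 per the methods) for 31077 genes, and whole reads were recovered from 100% of its values within a tolerance of 0.01 reads. At ZT6 and ZT10 at most 12.1% of genes had identical reads in both tables, against at least 92.7% at the other timepoints, and the count table was used. No sample column was left unused (0).

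Genes detected (1 read or more) in over 6 replicates entered the tests in edgeR 4.0.16 (R 4.3.3; TMM, quasi-likelihood), with 1 fit over all replicates and no covariates. DESeq2 1.42.0, other scalings and filters, the replicate block, recovered reads and leaving out each replicate were alternatives. JTK_CYCLE, permutation and exact tests ran in Python 3.11.15 with numpy 2.4.6 and scipy 1.17.1, and all were tested on simulated data. p-values measure the spread between pooled replicates. The GC and length correction was a loess fit per library (span 0.3). Symbols (97.2% of identifiers), positions and GC content come from GENCODE M21 on GRCm38 and start regions from RefSeq. The genes named were all 6 subunit genes, for each list those past the contrast of ZT14 and ZT22 or else the 2 with the smallest time-test p, and the 3 most correlated genes. The members and lists were chosen with earlier results of these data known, and the study itself names *Grin2a* and *Grin2b*. 1 further telencephalic marker gene is not reported here, and the marker sums leave it out.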

Additional observations from a re-analysis of the deposited data

How the results depend on the processing

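Alternatives covered DESeq2, other scalings and filters, the replicate block, recovered reads, the correction for GC content and length (chosen after seeing the data), other lengths, prior counts and each replicate left out. The count of genes called from ZT14 to ZT18 went from 1 to 0 with upper-quartile scaling, the replicate block and the correction, and ranged from 0 to 1 without single replicates. The count for ZT14 and ZT22 against ZT18 and ZT2 went from 0 to 1 with DESeq2, with at least 10 counts in every replicate and with no filter, and ranged from 0 to 1 without single replicates. The count passing JTK_CYCLE went from 2 to 1 with Benjamini–Hochberg adjustment over genes and ranged from 1 to 3 without single replicates. Without single replicates the exact within-cluster p ranged from 0.032 to 0.674 for *Grin2a* to *Grin1*, from 0.041 to 0.188 for *Grin2c* to *Grin1* and from 0.017 to 0.264 for *Grin2d* to *Grin1*. The exact p of the last was 0.04 with the replicate block. The 1 reversed value was that of *Grin2c* from ZT2 to ZT6, at -0.076 after the correction, which by construction removes each library's GC and length trend. Among the calls of single genes over all settings, the others that changed were *Grin2d* from ZT2 to ZT6 with the correction (gained), *Grin3a* from ZT2 to ZT6 without ZT2 C (gained), the time test of *Grin2a*, the step of *Grin1* from ZT10 to ZT14 and the comparisons of *Grin2b* given above, with recovered reads giving q = 0.117 and no filter q = 0.0854 for that of *Grin1* by edgeR. *Grin2a*, with 3 reads in 1 library, could not be tested with at least 10 counts in every replicate. Upper-quartile scaling moved the median of all genes by -0.15 from ZT10 to ZT14 and by 0.15 from ZT18 to ZT22. The share of *Grin1* at ZT10 was 51.6% by transcript length, and that of *Grin2c* at ZT6 was 12.6% by coding length.

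The replicate letters did not pair the samples: deviations of same-letter replicates correlated above 0.1 in 1 of 45 pairs (-0.275 to 0.104), and 8 of 18 replicates correlated best with their own letter. With the replicate block 7847 genes changed with time, against 8343 without it. *Grin2a* had few reads, but at ZT18 their number did not follow depth: ZT18 A, with 31836018 counts in all, held 15 and ZT18 C, with 15412981, held 88.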
